A study of Danio rerio with 30 samples.

Results

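Zebrafish embryos injected with a morpholino against *tbx5a* were compared at 2 stages, 21 hours post fertilization (hpf) and 18 hpf, across the genes of 1 expression table. Of 14648 listed genes, 10706 were taken as measured in these embryos: both stages carried a usable status, at least 1 stage reached 1 FPKM and the listed locus spanned at least 300 bp. FPKM is a count of fragments scaled by transcript length and by the mapped fragments of a library. Of the rest, 3903 genes stayed under 1 FPKM at both stages, 35 sat at shorter loci and 4 had no usable status. At least 1 FPKM was reached at both stages by 10193 of the measured genes, at 21 hpf alone by 339 and at 18 hpf alone by 174.

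All embryos came from the \*AB strain, and morpholinos, antisense oligonucleotides that block a transcript, entered at the single cell stage. Tbx5a-deficient embryos at 21 hpf and Tbx5a-deficient embryos at 18 hpf were each represented by 3 libraries, each made from 10 pooled embryos whose eyes had been dissected away. The same table holds Tbx5b-deficient, double-deficient (both morpholinos) and wildtype embryos at both stages, again with 3 libraries a group. Whether wildtype embryos received a control injection is not given in the sources used here. A morpholino lowers a protein without deleting the gene, and the cells are those of a nearly whole embryo, so that fewer cells of a type and less RNA per cell cannot be told apart.

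Between these stages a zebrafish embryo is still adding somites at the tail, while the somites made earlier turn on the contractile machinery of fast muscle. Precursors of melanophores, xanthophores and iridophores, the pigment cells of the neural crest, express genes of pigment synthesis. Primitive red cells fill with globin, and lateral plate mesoderm moves toward the places of the heart and the pectoral fins. Tbx5a is a T-box transcription factor of the heart and fin fields. The stage comparison asks which of these programmes moved within Tbx5a-deficient embryos over the interval.

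The table gives a single pooled value per gene and group with a lower and an upper bound, which the authors' program Cuffdiff made from the 3 libraries. No spread between libraries could therefore be computed, and no p-value is given. A gene was called when the log2 ratio of FPKM + 1 (21 over 18 hpf) was at least 1 in either direction and the bounds of the stages did not overlap. For genes of at least 10 FPKM at both stages, bounds separated at a median difference of 2.56-fold, with 2.45-fold and 3.02-fold as the 10th and 90th percentiles over 5294 genes. A smaller change was mostly not detectable with these bounds. All FPKM values summed to 874236 at 21 hpf, against 1057138 at 18 hpf, whereas in wildtype embryos they summed to 1293231 at 21 hpf, against 1073539 at 18 hpf.

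The targeted gene did not separate the stages. *tbx5a* was listed at 1.90 FPKM at 21 hpf (bounds 0.613 to 3.19), against 1.54 FPKM at 18 hpf (0.488 to 2.59), with a log2 ratio of 0.19. In wildtype embryos it stood at 1.04 against 1.61 FPKM (21 against 18 hpf, as in all such pairs of values). A morpholino need not lower its target's RNA, so these values check no label. Its paralogue *tbx5b* was at 0.208 against 0.153 FPKM, under the level limit at both stages.

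Among the 10706 measured genes, 81 rose and 11 fell. These are background shares of 0.757% called higher and 0.103% called lower, against which the counts within gene lists below are read. The fold limit alone was passed by 207 genes (1.93%) upward and 94 genes (0.878%) downward. The log2 ratio was above 0 for 5264 genes and below 0 for 5442, with a median of -0.01. Of the 81 genes that rose, 60 had at least 1 FPKM at both stages and 21 were under 1 FPKM at 18 hpf. A RefSeq entry (assembly GRCz12tu) matched 89 of the 92 called genes by name, 85 of them protein-coding and 4 microRNAs. Nearest to the fold limit with bounds apart, *per3* (1.04), *mybpc3* (1.15) and *frem2a* (1.16) lay just inside it. *epyc* (0.94), *myhc4* (0.93) and *casq1a* (0.92) lay just outside.

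**Figure D1:**
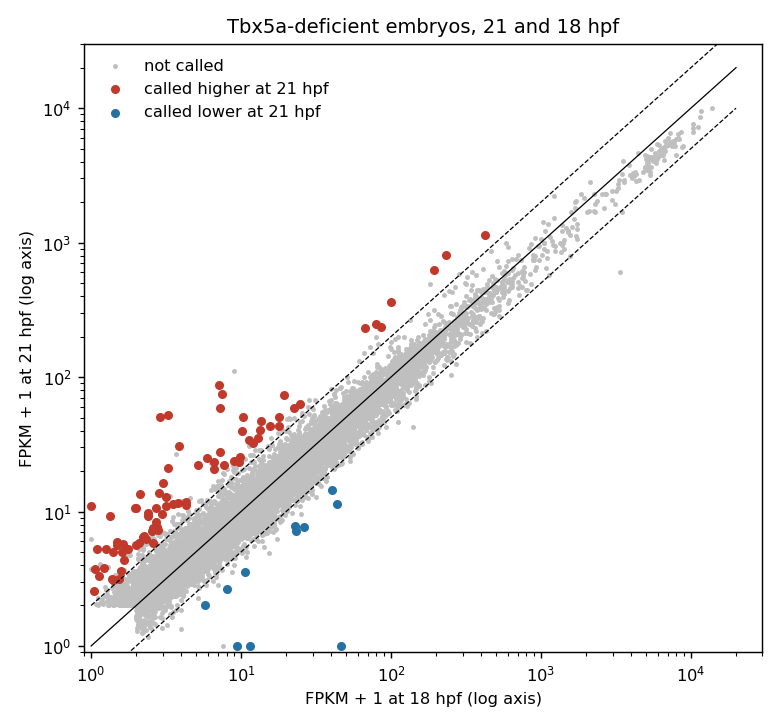
FPKM + 1 of the 10706 measured genes in Tbx5a-deficient embryos, 21 hpf on the vertical and 18 hpf on the horizontal log axis, with the line of equal levels (solid) and of 2-fold differences (dashed). The 81 genes called higher at 21 hpf (red) lie between 1.58 and 1129 FPKM at 21 hpf, and 3 of the 11 genes called lower (blue) are listed at 0 at 21 hpf.

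Muscle genes made up the most calls. In a list of contractile and excitation genes of skeletal muscle, 18 of 68 measured members were called higher and 0 lower, 65 had a ratio above 0, and the median was 0.77. The same list had a median of 0.81 in Tbx5b-deficient, 1.11 in double-deficient and 0.73 in wildtype embryos. The gene with the highest ratio was *tnni2a.4*, a fast troponin I (chromosome 25, 30699939 to 30711249, as deposited, on the build the labels name as GRCz10), at 49.5 FPKM at 21 hpf (bounds 25.6 to 73.5), against 1.89 FPKM at 18 hpf (0.397 to 3.39). *tnnt3a*, a fast troponin T, was at 86.5 FPKM at 21 hpf (bounds 49.4 to 123), against 6.11 FPKM at 18 hpf (2.32 to 9.91). The linear ratios were 26.2 and 14.1, the bounds of the stages stood far apart, and both genes were called in wildtype embryos too.

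The parvalbumins, calcium buffers of fast fibres, were near the floor at 18 hpf. *pvalb2* (chromosome 12, 17588551 to 17590624) reached 51.1 FPKM at 21 hpf (bounds 25.6 to 76.6), against 2.26 FPKM at 18 hpf (0.383 to 4.13). *pvalb1* stood at 8.29 against 0.344 FPKM and *pvalb4* at 9.68 against 0.959 FPKM (21 against 18 hpf). The regulatory myosin light chains differed in starting level: *mylpfb* was at 73.6 against 6.46 FPKM and the more abundant *mylpfa* at 809.6 against 233 FPKM. Neighbouring fast myosin heavy chain genes on chromosome 5 rose, *myhz1.1* with 20.05 against 2.25 FPKM, *myhz2* with 15.4 against 1.998 FPKM and *myhz1.2* with 4.72 against 0.643 FPKM. Reads of such near-identical neighbours may have been split between them, so each single value is uncertain.

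Other called members of the muscle list have roles in the Z-disc, the M-band, energy supply and calcium storage. *ldb3b*, a Z-disc protein, was at 39.0 against 9.21 FPKM and *actn3a*, a fast-fibre alpha-actinin, at 42.1 against 14.6 FPKM. *myom1a*, an M-band protein, was at 10.3 against 2.52 FPKM. The creatine kinases *ckmb* and *ckma* reached 629 against 194 FPKM and 233 against 85.4 FPKM. *casq2*, which holds calcium in the sarcoplasmic reticulum, stood at 46.2 against 12.7 FPKM. *tnnt3b* was at 8.21 against 1.41 FPKM and *mybpc3* at 2.098 against 0.398 FPKM. Among the actins, which are expressed early in myogenesis, *actc1a* was at 232 against 365 FPKM (log2 ratio -0.65), *acta1a* at 429.8 against 554 FPKM (-0.36), and neither was called. The more abundant actin *actc1b* stood slightly higher at 21 hpf, at 1814 against 1673 FPKM. Besides *actc1a* and *acta1a*, *mybphb*, at 104 against 132 FPKM, was the only list member below 0.

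Further called genes with known muscle roles lay outside the list and were picked after their values were seen. *mylz3*, a fast alkali light chain, was at 359 FPKM at 21 hpf (bounds 202 to 515), against 99.1 FPKM at 18 hpf (57.2 to 141). The Z-disc myozenins *myoz1b* and *myoz2a* were at 12.6 against 1.13 FPKM and 3.99 against 0.616 FPKM. *pygma*, the muscle glycogen phosphorylase, stood at 10.5 against 2.79 FPKM, and *tnni1al*, a troponin I, at 22.5 against 5.55 FPKM. *murcb*, *bves*, *nmrk2*, *mustn1*, *txlnbb*, *cx39.9*, *hhatla* and *hhatlb* also rose, with log2 ratios from 1.34 (*txlnbb*) to 2.08 (*nmrk2*). Of the glycolytic enzymes, 1 of 26 was called, the pyruvate kinase *pkmb* at 4.26 against 0.759 FPKM. The muscle phosphoglycerate mutase *pgam2*, at 29.5 FPKM at 21 hpf (bounds 15.9 to 43.1), against 10.3 FPKM at 18 hpf (4.65 to 15.98), passed the fold limit while its bounds met.

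Among factors that start myogenesis there was no call. The list of myogenic regulators and muscle progenitor genes had 0 of 27 members called and a median of -0.12. With equal FPKM sums its median was 0.12, beside 0.23 for all measured genes. *myf5* was at 21.4 against 45.3 FPKM (-1.05) and *myog* at 117 against 190.5 FPKM (-0.70), while *myf6*, the regulator of later differentiation, was at 6.19 against 2.60 FPKM (0.997).

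**Figure D2:**
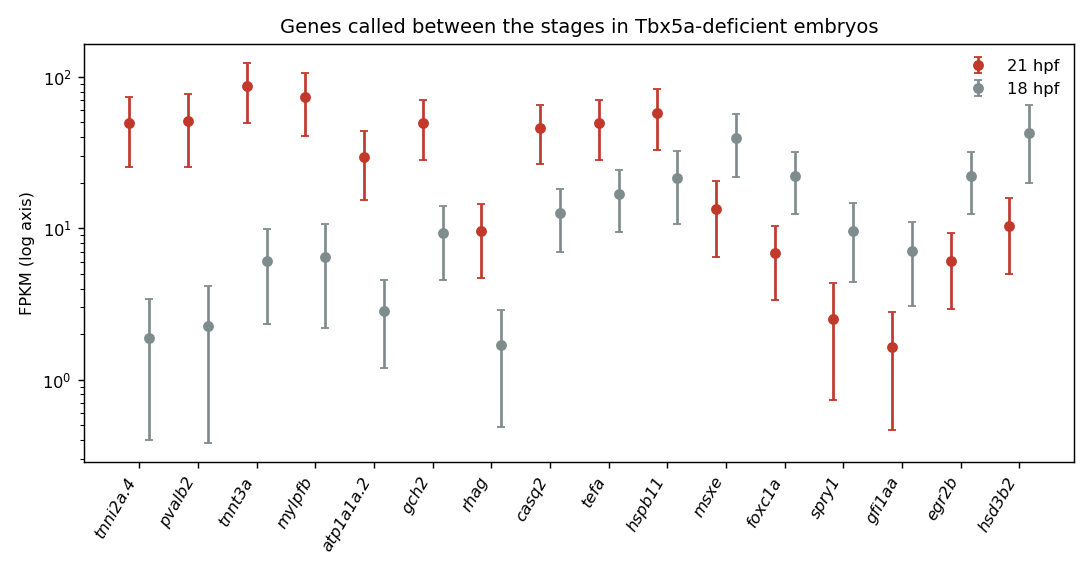
FPKM (log axis) of 16 called genes in Tbx5a-deficient embryos at 21 hpf (red, left of each pair) and 18 hpf (grey); bars are the deposited lower and upper bounds. Bounds of the stages do not overlap for any of these genes, which the call rule required.

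Pigment synthesis genes held the next most calls. Of 25 measured members, 7 were called higher and 0 lower, 21 were above 0 and the median was 0.93, against 0.90 in Tbx5b-deficient, 0.90 in double-deficient and 0.72 in wildtype embryos. The Tbx5a-deficient median was 1.58 with a pseudocount of 0.1 and 0.62 among members of at least 5 FPKM. The pteridine pathway of xanthophores contributed *gch2*, a GTP cyclohydrolase (chromosome 12, 24994484 to 25001207), at 49.4 FPKM at 21 hpf (bounds 28.0 to 70.8), against 9.32 FPKM at 18 hpf (4.58 to 14.1). It also contributed *pts*, which makes the next intermediate, at 39.2 FPKM at 21 hpf (bounds 21.5 to 56.9), against 12.3 FPKM at 18 hpf (5.39 to 19.2). The melanin enzymes *tyr* and *tyrp1b* were at 5.30 against 1.31 FPKM and 4.60 against 0.491 FPKM, and the melanosome protein *pmela* at 10.3 against 3.27 FPKM. *pnp4a*, a purine enzyme of iridophores, was at 2.83 against 0.216 FPKM, and *slc2a15b* at 7.32 against 1.71 FPKM. *sprb*, a sepiapterin reductase outside the list, rose too (2.31 against 0.133 FPKM). *dct*, at 3.84 FPKM at 21 hpf (bounds 1.59 to 6.10), against 1.04 FPKM at 18 hpf (0.134 to 1.95), was not called. These genes have roles in all 3 pigment cell types, though which cells gave the values was not tested. *sox10*, the crest factor upstream of these cell types, stood at 11.9 against 19.8 FPKM (-0.69).

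*tyrp1b* is also a gene of the retinal pigment epithelium, and the eyes had been taken off these embryos. Genes of lens and eye, given here as 53 listed members of which 25 passed the level limit, had a median of -0.19 with *tyrp1b* as the 1 called member. Their FPKM summed to 94.9 at 21 hpf, against 106 at 18 hpf, and in wildtype embryos to 102 at 21 hpf, against 103 at 18 hpf. Of 12 defining eye markers, 3 were under 1 FPKM at both stages (*cryaa*, *rx2* and *rlbp1b*) and none was at 0. Between the genotypes these markers went in both directions. *rx1* was at 2.85 and 3.01 FPKM in Tbx5a-deficient embryos at 21 and 18 hpf, against 1.45 and 1.47 FPKM in wildtype embryos. The crystallin *crygn2* was at 3.75 and 4.75 FPKM, against 8.39 and 5.10 FPKM in wildtype embryos. *cryba1l1* was at 1.44 and 2.79 FPKM, against 3.71 and 2.96 FPKM in wildtype embryos. The part of remaining eye tissue in the pigment values was not tested. Of 24 markers of muscle, heart, blood, endothelium, neurons, yolk layer, hatching gland, notochord and periderm, 21 had 1 FPKM or more at both stages. The periderm keratins *krt4* and *cyt1* were listed at 0 at both stages, in wildtype embryos as well.

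Red cell genes gave 2 calls among 27 members, with 22 above 0 and a median of 0.35 (0.38 in Tbx5b-deficient, 0.53 in double-deficient and 0.62 in wildtype embryos). *hbae3*, an embryonic alpha globin (chromosome 3, 54891994 to 54893165), was at 1129 FPKM at 21 hpf (bounds 618 to 1639.9), against 423 FPKM at 18 hpf (245 to 602). *rhag*, a membrane protein of red cells, was at 9.54 against 1.70 FPKM. Within the same stretch of chromosome 3, *MGC173646* (249 against 78.2 FPKM) and *si:ch211-5k11.12* (229.9 against 66.0 FPKM) rose; RefSeq lists the second as the beta globin *hbbe1.3*. Globin genes are close copies, so that their single values are uncertain. *hbae1* (1.18) and the transferrin receptor *tfr1a* (1.18) passed the fold limit but not the bounds. The members with the lowest ratios, none called, were *lmo2* at 21.4 against 37.8 FPKM, *tal1* at 19.1 against 28.5 FPKM and *gata1a* at 6.22 against 9.20 FPKM. In wildtype embryos *lmo2* was at 30.4 against 37.8 FPKM, *tal1* at 20.4 against 25.7 FPKM and *gata1a* at 8.47 against 4.35 FPKM. The median of members 5 Mb or more from a chromosome end was 0.55 (wildtype 0.69).

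Endothelial genes had a median of -0.13 (-0.40 among members of at least 5 FPKM) and 0 of 28 called. With both stages scaled to equal FPKM sums their median was 0.10, beside 0.23 for all measured genes. Members among the lowest and the highest ratios follow, none of them called. *hhex* was at 8.72 FPKM at 21 hpf (bounds 3.27 to 14.2), against 21.0 FPKM at 18 hpf (9.85 to 32.1), *gata2a* at 4.99 against 12.1 FPKM and *etv2* at 28.8 against 47.9 FPKM. *stab2* was at 4.09 against 1.70 FPKM, *cldn5b* at 13.7 against 8.04 FPKM and *cdh5* at 3.09 against 1.60 FPKM. The same list had a median of 0.23 in wildtype embryos, whose values were not rescaled.

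Among transport and epithelial genes, 2 sodium pump subunits rose. *atp1a1a.2*, an alpha subunit, was at 29.5 FPKM at 21 hpf (bounds 15.31 to 43.8), against 2.85 FPKM at 18 hpf (1.19 to 4.52), a log2 ratio of 2.99, and its wildtype ratio was 3.04. It was the 1 called gene of 22 in the kidney and intermediate mesoderm list, whose median was -0.26. *atp1b1b*, a beta subunit, was at 26.5 against 6.28 FPKM, and the laminin chain *lamb4* at 3.35 against 0.649 FPKM; these were the 2 called of 41 periderm, epidermis and ionocyte genes (median 0.24). Outside the lists, the potassium channel cluster *kcnj1a.2,kcnj1a.4,kcnj1a.5* was at 9.62 against 1.002 FPKM (its locus overlaps those of *kcnj1a.3* and *kcnj1a.6*), the calcium channel *trpv6* at 2.14 against 0.385 FPKM, the water channel *aqp3a* at 21.1 against 4.12 FPKM and the transglutaminase *tgm2a* at 12.7 against 1.84 FPKM. Of the 41 periderm, epidermis and ionocyte genes, 30 had a ratio above 0, and 34 did in wildtype embryos. Some keratins of the surface layer were lower without a call. *krt18* was at 440.4 against 808 FPKM, *krt17* at 649 against 1086 FPKM and *krt5* at 1939.8 against 3108 FPKM. In wildtype embryos *krt5* was at 3301 against 3174 FPKM.

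Matrix and neural genes yielded few calls. *matn4*, a matrilin, was the 1 called of 36 notochord and matrix genes, at 32.7 FPKM at 21 hpf (bounds 19.1 to 46.4), against 10.4 FPKM at 18 hpf (5.74 to 14.99). *sfrp2*, a secreted Wnt inhibitor, rose outside the lists (22.4 against 8.65 FPKM), as did *fmoda*, *frem2a* and *pmp22b*. Of 79 genes of neurogenesis and early neurons, 0 were called; 52 were above 0 and the median was 0.18. *snap25a*, a synaptic protein, was at 14.5 FPKM at 21 hpf (bounds 7.99 to 21.0), against 5.92 FPKM at 18 hpf (2.85 to 8.997) and *gng3* at 16.4 against 8.28 FPKM. *p2rx3a*, an ATP receptor of sensory neurons, and *sncga*, a synuclein, were called outside the list, at 5.58 against 1.26 FPKM and 6.54 against 1.58 FPKM. *hoxb13a*, of the posterior end of its cluster, was the 1 called of 48 Hox genes (4.02 against 0.392 FPKM), and *hoxc13a* (19.8 against 7.01 FPKM) and *hoxa13a* (5.71 against 1.78 FPKM) of its paralogue group passed the fold limit with bounds that met, while *hoxd13a* had a ratio of -0.52. Hox genes as a list had a median of 0.04.

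Chaperone genes spread widely. Of 45 measured, 1 was called, 9 passed the fold limit upward and the median was 0.35, against 0.09 in Tbx5b-deficient, 0.10 in double-deficient and 0.16 in wildtype embryos. *hspb11*, a small heat shock protein on chromosome 21 that RefSeq names *hspb9l*, was at 58.0 FPKM at 21 hpf (bounds 32.8 to 83.3), against 21.5 FPKM at 18 hpf (10.7 to 32.4), with wildtype at 50.2 against 39.4 FPKM. *hsp70.1*, the inducible Hsp70, was at 10.97 FPKM at 21 hpf (bounds 4.70 to 17.2), against 3.03 FPKM at 18 hpf (1.06 to 4.99) and in wildtype embryos at 3.41 against 2.7001 FPKM. *hsp90aa1.2* was at 196 FPKM at 21 hpf (bounds 80.5 to 312), against 78.9 FPKM at 18 hpf (40.6 to 117) and in wildtype embryos at 74.5 against 73.2 FPKM. The lowest ratios belonged to the chaperonin subunits *cct2* at 404 against 707 FPKM and *tcp1* at 302 against 496 FPKM, the small heat shock protein *hspb1* at 323 against 494 FPKM and the constitutive *hsp90ab1* at 1812 against 2630.2 FPKM, none called.

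Clock genes gave 2 calls of 35, with 27 above 0 and a median of 0.23. The median was 0.01 in Tbx5b-deficient, 0.23 in double-deficient and 0.05 in wildtype embryos, with 18, 28 and 20 members above 0. *tefa*, a clock-driven transcription factor, was at 49.3 FPKM at 21 hpf (bounds 28.3 to 70.28), against 16.9 FPKM at 18 hpf (9.50 to 24.2). In wildtype embryos it was at 35.2 against 23.1 FPKM. *per3*, the other called gene, was at 2.16 FPKM at 21 hpf (bounds 0.996 to 3.33), against 0.543 FPKM at 18 hpf (0.160 to 0.925). *cry1a* was at 5.57 FPKM at 21 hpf (bounds 2.73 to 8.41), against 1.90 FPKM at 18 hpf (0.781 to 3.02). Its bounds overlapped, so it was not called. *per1b*, not called, was at 1.51 against 0.425 FPKM in Tbx5a-deficient embryos and at 1.28 against 2.19 FPKM in wildtype embryos, all low levels. It was 1 of 3 genes whose stage ratio counted as larger than in wildtype embryos. In the preliminary experiment, with 1 library a group, *per1b* rose in both genotypes. Its centred log2 ratio there, taken across separately normalized tables, was 2.49 in Tbx5a-deficient and 2.25 in wildtype embryos. The clock time of collection is not given in the sources used here, so time of day and stage cannot be told apart.

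The 11 genes that fell are a mixed set. Among them, *mirlet7j*, *mir133a-1* and *mir3906* are microRNA loci listed at 0 at 21 hpf, against 45.3, 10.4 and 8.35 FPKM at 18 hpf. Each locus overlaps a protein-coding gene (*wdr82*, *mib1* and *myf5*). *mir10c*, within the *hoxb* cluster, showed the reverse, 10.1 FPKM at 21 hpf and a listed 0 at 18 hpf. For these microRNAs both bounds of a listed 0 are 0 as well. Bounds without width separate from any value whose lower bound is above 0, so they add nothing to these calls. *mirlet7j* was at 0 at both stages in wildtype embryos, and in double-deficient embryos it had 41.7 FPKM at 21 hpf and was listed at 0 at 18 hpf. Reads of a host transcript and of a microRNA precursor inside it cannot be told apart in these values.

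The other 8 include developmental regulators. *egr2b*, the hindbrain segment factor Krox20 (chromosome 12, 8445995 to 8448481), was at 6.10 FPKM at 21 hpf (bounds 2.91 to 9.30), against 22.2 FPKM at 18 hpf (12.5 to 31.9). *gfi1aa*, a repressor in blood progenitors, was at 1.63 FPKM at 21 hpf (bounds 0.465 to 2.80), against 7.07 FPKM at 18 hpf (3.08 to 11.05). *spry1*, a feedback inhibitor of Fgf receptors (chromosome 14, 508473 to 509757), was at 2.53 FPKM at 21 hpf (bounds 0.738 to 4.33), against 9.55 FPKM at 18 hpf (4.42 to 14.7). *foxc1a*, a forkhead factor of paraxial mesoderm (chromosome 2, 814509 to 816686), was at 6.83 FPKM at 21 hpf (bounds 3.35 to 10.3), against 22.02 FPKM at 18 hpf (12.4 to 31.7). All 4 also stood lower at 21 hpf in wildtype embryos, at -0.62, -0.46, -0.76 and -0.28 on the log2 scale, without passing the call rule there.

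*chd*, the Bmp antagonist Chordin, was at 1.02 FPKM at 21 hpf (bounds 0.314 to 1.73), against 4.77 FPKM at 18 hpf (2.24 to 7.31). *msxe*, a homeobox gene of dorsal ectoderm, was at 13.5 FPKM at 21 hpf (bounds 6.48 to 20.5), against 39.3 FPKM at 18 hpf (21.6 to 56.9). *hsd3b2*, an enzyme of steroid synthesis, was at 10.4 FPKM at 21 hpf (bounds 4.98 to 15.8), against 42.4 FPKM at 18 hpf (20.1 to 64.7), and *LOC570474*, which has no match in the reference tables, at 6.63 FPKM at 21 hpf (bounds 2.41 to 10.9), against 25.3 FPKM at 18 hpf (13.3 to 37.2).

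Of these 8 genes, 6 lie under 2 Mb from the end of a chromosome. So do 1117 of the 10706 measured genes and 6 of the 81 genes called higher. Distance was taken from the first base or from the last listed locus of the chromosome: *msxe* sits 0.242 Mb from the end, *LOC570474* 0.265 Mb, *spry1* 0.508 Mb, *foxc1a* 0.815 Mb, *chd* 1.09 Mb and *hsd3b2* 1.25 Mb. The pattern holds well beyond the called genes. The 284 measured genes under 0.25 Mb from an end had a median log2 ratio of -0.52, and 249 of them (87.7%) were below 0. The median was -0.40 at 0.25 to 0.5 Mb, -0.31 at 0.5 to 1 Mb, -0.18 at 1 to 2 Mb, -0.07 at 2 to 5 Mb and -0.02 at 5 to 10 Mb. It was 0.03 at 10 to 20 Mb and 0.06 farther in.

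Double-deficient embryos had the same gradient, with -0.35 in the outermost class. The other genotypes had it in the opposite direction, with 0.18 in Tbx5b-deficient and 0.23 in wildtype embryos. In the outermost class the median log2 ratio of Tbx5a-deficient over wildtype was -0.51 at 21 hpf and 0.21 at 18 hpf. The gradient was present at every expression level, with medians under 1 Mb of -0.15 for genes averaging under 3 FPKM and -0.48 for genes of 100 FPKM or more, against 0.14 and -0.14 at 5 Mb or more. The 99 measured genes on unplaced scaffolds had a median of -0.37. *tbx5a* itself lies 0.101 Mb from an end of chromosome 5.

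Without the genes under 2 Mb from an end and those on scaffolds, an alternative chosen after seeing the data, 75 genes rose and 5 fell. With ratios centred within each distance class, 82 rose, 75 of the 81 among them, and 7 fell, and *msxe*, *spry1*, *foxc1a* and *LOC570474* were no longer called. The cause of the gradient was not tested.

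**Figure D3:**
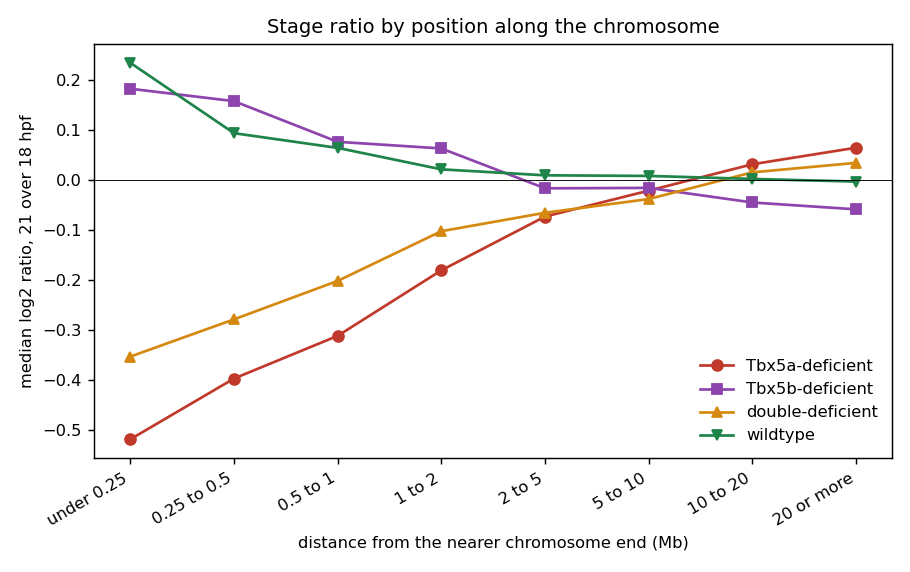
Median log2 ratio (21 over 18 hpf) of the genes measured in Tbx5a-deficient embryos in 8 classes of distance from the nearer chromosome end in Mb, for each genotype. The Tbx5a-deficient line runs between -0.52 in the outermost and 0.06 in the innermost class and the wildtype line starts at 0.23.

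Genes of the segmentation clock and presomitic mesoderm, the tissue that somites bud from, were mostly lower at 21 hpf. Of 28 measured, 1 was called lower (*foxc1a*), 23 were below 0 and the median was -0.61, beside -0.40 in Tbx5b-deficient, -0.57 in double-deficient and -0.34 in wildtype embryos. In wildtype embryos all 28 were below 0. The median difference of the stage ratios, Tbx5a-deficient minus wildtype, was -0.09, with 16 members below 0 and 12 above. *hes6* was at 37.7 FPKM at 21 hpf (bounds 21.0 to 54.3), against 81.1 FPKM at 18 hpf (46.9 to 115), *msgn1* at 60.4 FPKM at 21 hpf (bounds 35.1 to 85.7), against 126 FPKM at 18 hpf (72.8 to 179) and *tbx6* at 13.5 FPKM at 21 hpf (bounds 7.52 to 19.6), against 28.8 FPKM at 18 hpf (16.04 to 41.6); each passed the fold limit and none the bounds. *nrarpb* (16.9 against 10.98 FPKM), *lfng* (97.6 against 83.4 FPKM) and *dld* (37.2 against 31.7 FPKM), all of the Notch pathway, lay above 0. Among the members 5 Mb or more from a chromosome end the median was -0.48, beside 0.03 for all such genes, and with equal FPKM sums it was -0.37, beside 0.23 for all genes.

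The Fgf, Wnt, Hedgehog, retinoic acid and Bmp lists gave 2 calls. Among Fgf ligands, receptors and feedback targets, 1 of 21 was called lower (*spry1*), 16 were below 0 and the median was -0.47, which became -0.23 among members 5 Mb or more from an end. *etv4* was at 28.5 against 50.2 FPKM and *etv5b* at 39.7 against 67.1 FPKM. Wnt ligands and targets had 0 of 16 called and a median of -0.42, with *tcf7* at 8.74 against 15.7 FPKM, *cdx4* at 50.5 against 86.6 FPKM and *wnt5b*, the 1 member above 0, at 11.996 against 10.3 FPKM. Hedgehog genes had 0 of 12 called and a median of -0.28. Retinoic acid genes had 0 of 19 and -0.21 (0.03 with equal FPKM sums), and Bmp genes 1 of 22 (*chd*) and -0.10 (0.14 with equal FPKM sums). With equal sums the median of all measured genes was 0.23. In wildtype embryos, not rescaled, the medians were -0.29 for Fgf, -0.38 for Wnt and -0.36 for Hedgehog genes. They were -0.22 for retinoic acid and 0.08 for Bmp genes.

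The fin field and lateral plate list had 0 of 24 members called, 18 below 0 and a median of -0.32 (wildtype -0.19). Among its 15 members 5 Mb or more from a chromosome end the median was -0.19 in Tbx5a-deficient and -0.20 in wildtype embryos. A count of 0 in a list of this size is near the background shares of 0.757% called higher and 0.103% called lower. *gata6* was at 16.2 against 29.8 FPKM, *gata5* at 21.3 against 32.9 FPKM and *hand2* at 18.0 against 15.33 FPKM. Heart genes had 0 of 22 called and a median of 0.09 (0.22 among members of at least 5 FPKM), with the chamber myosins highest: *myl7*, a cardiac light chain, was at 50.1 FPKM at 21 hpf (bounds 28.3 to 71.9), against 25.2 FPKM at 18 hpf (13.16 to 37.2) and *vmhc* at 7.57 against 4.65 FPKM, with wildtype values of 59.6 against 29.2 FPKM and 9.61 against 4.36 FPKM. The heart list does not hold the sarcomere gene *mybpc3*, so the count of 0 for heart genes does not cover it. *mybpc3* was called as a member of the muscle list, in Tbx5a-deficient embryos and in the other genotypes too. Of the other T-box genes, 0 of 13 were called, and *tbx6l* (5.79 against 13.3 FPKM), *tbx6* and *tbx16* (9.26 against 18.3 FPKM) had the lowest ratios.

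Neural crest specifiers had 1 of 23 called (*msxe*) and a median of -0.15 (0.11 with equal FPKM sums, beside 0.23 for all measured genes). *snai1b* was at 5.25 FPKM at 21 hpf (bounds 1.79 to 8.71), against 16.3 FPKM at 18 hpf (7.50 to 25.01). Cell cycle genes had 0 of 93 called and a median of -0.01 (0.26 with equal FPKM sums), and p53 response genes 0 of 21 and -0.08 (0.19 with equal FPKM sums). Hatching gland (0 of 14), yolk layer (0 of 25), endoderm (0 of 18), motile cilia (0 of 36) and cathepsin genes (0 of 13) had medians of 0.09, 0.25, -0.36, -0.21 and 0.00.

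**Figure D4:**
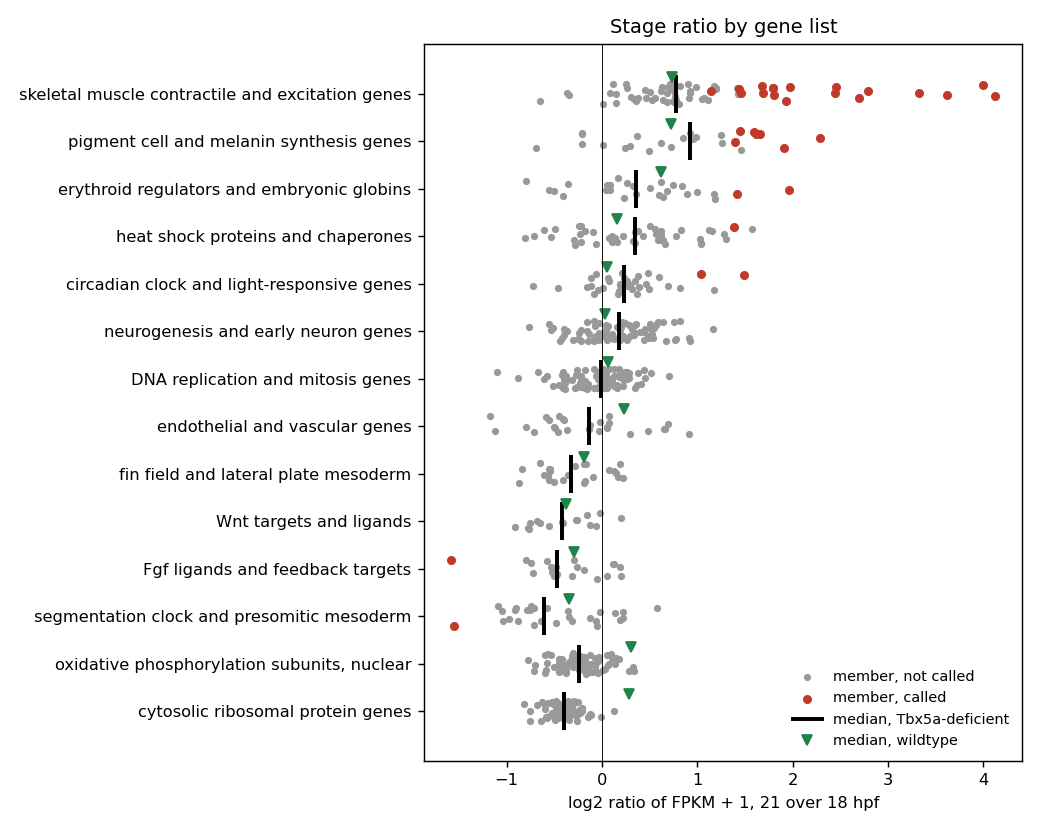
Log2 ratio of FPKM + 1 (21 over 18 hpf) of the measured members of 14 gene lists in Tbx5a-deficient embryos; red points are called, the black bar is the list's median and the green triangle its median in wildtype embryos. Muscle (0.77) and pigment (0.93) medians lie highest. On the deposited scale the medians of ribosomal (-0.40) and oxidative phosphorylation genes (-0.24) lie on the other side of 0 from wildtype. With equal FPKM sums in Tbx5a-deficient embryos that of the oxidative phosphorylation genes is 0.03, beside 0.23 for all measured genes. Wildtype values were not rescaled.

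The most abundant transcripts of the embryo shifted in small steps in one direction. Of 76 cytosolic ribosomal protein genes, 75 were below 0, 0 were called and the median was -0.40; *rplp0* was at 4496 FPKM at 21 hpf (bounds 1373 to 7619), against 7944 FPKM at 18 hpf (1594 to 14294). In double-deficient embryos the median was -0.46, in Tbx5b-deficient embryos 0.22 and in wildtype embryos 0.29, where 75 were above 0. The 81 nuclear oxidative phosphorylation genes had 68 below 0 and a median of -0.24 (wildtype 0.30). Translation factors (-0.22, wildtype 0.19), tRNA synthetases (-0.24, wildtype 0.13) and proteasome subunits (-0.09, wildtype 0.22) lay the same way round, with 0 called in each. These directions depend on the scale. An alternative chosen after seeing the data brought both Tbx5a-deficient stages to equal FPKM sums. Ribosomal protein genes alone held 333848 of the 871704 FPKM of measured genes at 21 hpf and 449450 of 1053330 at 18 hpf. The scale factor thus rests in large part on the genes being judged and is no independent check of them. Under it the median of all measured genes moved to 0.23 and that of ribosomal genes to -0.13 (64 of 76 below 0). The medians of oxidative phosphorylation genes (0.03, with 33 of 81 below 0), translation factors (0.05), tRNA synthetases (0.02) and proteasome subunits (0.18) then changed sign while lying under that of all genes. Wildtype values were not rescaled, although wildtype FPKM sums rose between the stages (1293231 at 21 hpf, against 1073539 at 18 hpf). Whether the genotypes still differ in sign with both on equal sums was not tested.

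The shift followed abundance. Genes averaging 1000 FPKM or more had a median of -0.37 (154 genes), those of 300 to 1000 FPKM -0.20, of 30 to 100 FPKM -0.05 and those under 3 FPKM 0.11. In wildtype embryos the same classes had 0.29, 0.23, 0.04 and 0.00. The cause of these shifts was not tested.

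Most genes that rose in Tbx5a-deficient embryos also rose or leaned upward in the others. Of the 81, 80 had a ratio above 0 in wildtype embryos and 31 were called there, with median ratios of 1.66 in Tbx5a-deficient and 1.31 in wildtype embryos. In double-deficient embryos 80 were above 0 and 64 called, and in Tbx5b-deficient embryos 78 and 42. The share of all measured genes called higher was 0.542% in Tbx5b-deficient, 1.02% in double-deficient and 0.337% in wildtype embryos (58, 110 and 36 genes), and the share called lower 0.0655%, 0.0836% and 0.0468% (7, 9 and 5 genes). Because the 81 were chosen on their Tbx5a-deficient ratio, the larger median there is a description. Of the 11 that fell, 9 were below 0 in wildtype embryos and 1 was called, *mir3906*.

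Across genes, Pearson's r of the Tbx5a-deficient stage ratio was 0.770 with that of double-deficient (10603 genes), 0.394 with wildtype (10558) and 0.327 with Tbx5b-deficient embryos (10574). Spearman's rho was 0.759 with double-deficient, 0.235 with wildtype and 0.0547 with Tbx5b-deficient embryos. These stage ratios share no libraries, and genes are not independent replicates; expression level and chromosome position are common to the points. Wildtype and Tbx5b-deficient ratios had an r of 0.741.

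**Figure D5:**
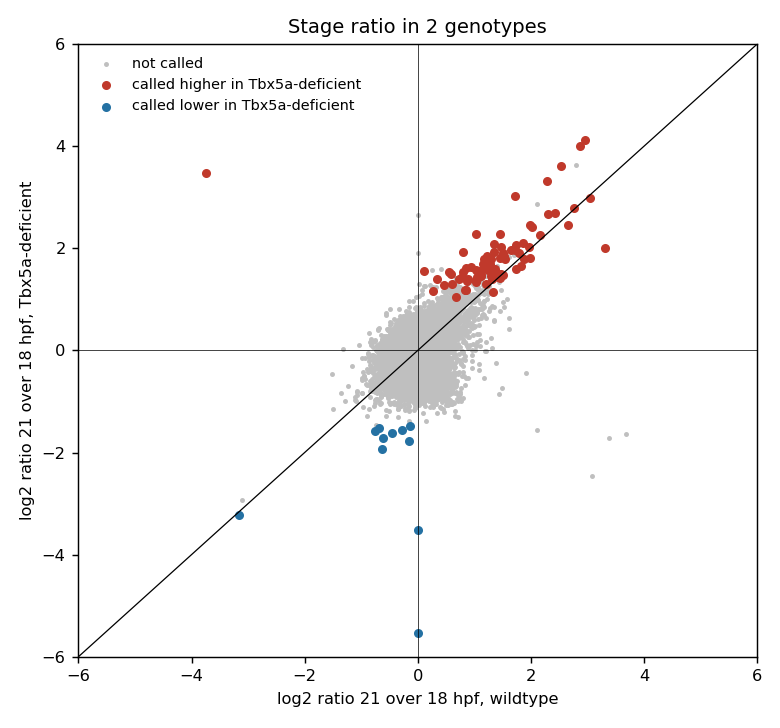
Log2 ratio (21 over 18 hpf) of each measured gene in Tbx5a-deficient embryos (vertical) and wildtype embryos (horizontal), with the line of equal ratios; red and blue points are the genes called higher and lower in Tbx5a-deficient embryos. Of the 81 red points 80 lie right of 0, and *mir10c* is the exception.

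The difference between the genotypes was taken for each of 10558 genes measured in both, and counted when the ratios differed by at least 1 on the log2 scale and by more than their bounds added in quadrature. It counted as larger in Tbx5a-deficient embryos for 3 genes (0.0284%) and as smaller for 30 (0.284%). The 3 were *mir10c*, *per1b* and *ngs*, and that of *mir10c* rests on listed zeros whose bounds have no width. *ngs*, a gene named for the notochord granular surface, had 4.26 against 0.0888 FPKM in Tbx5a-deficient and 1.304 against 0.130 FPKM in wildtype embryos. None of the called muscle or pigment genes was among them.

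Of the 30 with a smaller ratio, 22 lay under 2 Mb from a chromosome end and 2 on scaffolds, beside 1117 and 99 of the 10706 measured genes. *hhex*, a homeobox factor of endothelium and liver, was at 8.72 against 21.0 FPKM in Tbx5a-deficient and 24.6 against 15.26 FPKM in wildtype embryos, a difference of -1.83 with a combined half-width of 1.79; it sits 1.51 Mb from an end. *otop1*, an otolith gene, had a difference of -2.02 and the splicing factor *srsf10b* of -1.94, at 0.196 and 0.00589 Mb. *krt91*, a keratin, is farther in (5.46 Mb) and was at 92.7 against 179 FPKM in Tbx5a-deficient and 225 against 129 FPKM in wildtype embryos. *rpph1*, the RNA of RNase P at a locus of 306 bp, was at 3.91 against 14.3 FPKM in Tbx5a-deficient and 58.9 against 3.68 FPKM in wildtype embryos. Its bounds were wide, at 21 hpf 0 to 8.13 FPKM in Tbx5a-deficient and 11.8 to 106 FPKM in wildtype embryos.

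A panel of 17 genes that the study had followed by in situ hybridization, chosen on these samples, held 2 of the calls, *pvalb2* and *tyrp1b*, and is no independent evidence of direction. *obsl1a*, a sarcomere protein, was at 7.43 against 3.96 FPKM, *phlda2* at 52.7 against 44.7 FPKM, *ctsc* at 213 against 319 FPKM, *aimp1* at 98.6 against 139 FPKM, *sox7* at 6.65 against 9.07 FPKM and *ndufa4* at 23.9 against 19.4 FPKM, none called.

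A preliminary experiment with 1 library a group, eyes kept and a separate table for each stage offered other embryos. After centring on the median of matched genes, 64 of the 65 matched genes that rose were above 0 in preliminary Tbx5a-deficient embryos, with a median of 2.78, and 65 of 65 in preliminary wildtype embryos. Across 8672 matched genes, Pearson's r of the preliminary and the triplicate stage ratio was 0.209. Of 6 matched genes that fell, 4 were below 0, with *foxc1a* and *spry1* above 0. In those libraries the genes under 0.25 Mb from a chromosome end had a median of 0.13. The preliminary tables were normalized separately, so levels were not compared across them.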

How the data were processed

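RNA was measured by poly-A sequencing of pooled zebrafish embryos. The authors deposited FPKM values made with Cuffdiff, 1 pooled value per gene and group with a lower and an upper bound whose level is not stated, from 3 libraries a group. The submitters' processing notes name TopHat2 2.1.0, Bowtie2 2.2.5.0 and bcl2fastq. The labels name the genome build GRCz10 and the study's methods Zv9; coordinates are printed as deposited, and scaffold names follow the GRCz10 style. How strand was handled is not given in the sources used here, and the depth per library is not in the values used.

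From these values the log2 ratio of FPKM + 1 was taken, for genes of at least 1 FPKM at either stage and loci of at least 300 bp. A gene was called at an absolute log2 ratio of at least 1 with bounds that did not overlap. No p-value was computed, since the spread between libraries is not in the pooled values. Members and the 37 gene lists were chosen with earlier results of these data known. Named are *tbx5a* and *tbx5b*, the called genes with the largest ratios in each direction, called list members with the highest and lowest other members of each list, the genes with the largest counted genotype differences, the study's panel and the genes nearest the fold limit. Other called genes, and single list members beside them, were named after their values were seen. Alternatives varied the pseudocount, the level and locus filters, the use of bounds and the scaling. Gene names were matched to RefSeq GRCz12tu for names only, and no sequence is shown. Python 3.11.15, numpy 2.4.6, pandas 2.3.3, scipy 1.17.1 and matplotlib 3.10.9 were used.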

Additional observations from a re-analysis of the deposited data

Results flagged for a closer look

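In the deposited FPKM, most members of these gene lists had a stage ratio below 0 in Tbx5a-deficient embryos and above 0 in wildtype embryos. For cytosolic ribosomal protein genes the median difference of the stage ratios, Tbx5a-deficient minus wildtype, was -0.71 on the log2 scale, with 75 of 76 members below 0 in Tbx5a-deficient embryos and 75 above 0 in wildtype embryos. For nuclear oxidative phosphorylation subunits it was -0.51, with 68 of 81 below 0 in Tbx5a-deficient and 79 above 0 in wildtype embryos. With the Tbx5a-deficient stages scaled to equal FPKM sums, 64 of 76 ribosomal genes but only 33 of 81 oxidative phosphorylation genes were below 0. Wildtype values were left on the deposited scale. Over all measured genes the median difference of the stage ratios was 0.01. In Tbx5a-deficient embryos all FPKM values summed to 874236 at 21 hpf, against 1057138 at 18 hpf. In wildtype embryos the sums went the opposite way, to 1293231 at 21 hpf, against 1073539 at 18 hpf. How much of either list's difference goes with these sums was not tested. Neither difference was tested, since single libraries are not in the pooled values.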

How the results depend on the processing

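Without the bounds, 207 genes rose and 94 fell. With half-widths added in quadrature the counts were 177 and 67, and with equal FPKM sums 147 and 7. With loci of any length 22 genes fell. Chosen after seeing the data, leaving out genes under 2 Mb from a chromosome end or on scaffolds left 5 genes that fell, and centring within distance classes left 7. Leaving out microRNA names, scaling lists and genes to equal sums, and lists restricted to genes 5 Mb or more from an end were also chosen after seeing the data. Spearman's rho of the stage ratio was 0.0547 with Tbx5b-deficient and 0.235 with wildtype embryos, against the Pearson values 0.327 and 0.394. No called gene named here changed sign. With equal sums, besides the list medians given above, those of notochord (0.25) and cathepsin genes (0.27) also lay above 0. The median of all measured genes was then 0.23, so these lie near it. A limit of at least 5 FPKM moved 10 list medians, beside those given above to -0.42 for kidney, -0.30 for neural crest, -0.36 for eye, -0.43 for motile cilia, -0.46 for fin field, 0.48 for red cell and -0.07 for the study's panel genes. A pseudocount of 0.1 moved 5, beside pigment genes to -0.55 for Wnt, 0.91 for muscle, 0.50 for red cell and -0.33 for eye genes. Centring by distance moved 3 list medians, to -0.30 for Fgf, -0.20 for fin field and 0.47 for red cell genes. The lower pseudocount of 0.1 brought *casq1a*, *epyc* and *myhc4* past the fold limit, and equal upper quartiles took *spry1* out of the calls. No paired analysis was possible because each group is 1 pooled value, and leaving out single libraries was not possible for the same reason. The bounds limit detection to differences of about 2.56-fold at 10 FPKM or more, and genes of low level need more.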

Other observations

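Some called genes belong to no comparison above. *cmn*, a gene of the notochord sheath, was at 72.9 FPKM at 21 hpf and 18.4 FPKM at 18 hpf. Its log2 ratio was 1.93, beside -0.61 in Tbx5b-deficient and 0.80 in wildtype embryos. *wu:fc46h12*, which no gene list holds, was at 57.8 FPKM at 21 hpf and 6.25 FPKM at 18 hpf. *lft2*, a Nodal antagonist, rose by 1.69 on the log2 scale.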
